A study of Mus musculus with 6 samples.

Results

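Mucins carry dense sugar chains, the O-glycans, that are built in the Golgi one sugar at a time. A galactose added to the first sugar gives core 1, a branch on core 1 gives core 2, and N-acetylglucosamine in place of the galactose gives core 3, after which the chains are lengthened and capped. In the stomach these chains decorate the mucins of the surface (pit) cells and of the glands, and the antral glands make Muc6, a gel-forming mucin. The 10 genes described here encode enzymes of these core, branch and extension steps and 1 chaperone: C1galt1 and C1galt1c1 (core 1), Gcnt1, Gcnt3 and Gcnt4 (core 2), B3gnt6 (core 3), B3gnt3 and B3gnt5 (added N-acetylglucosamine), and B4galnt2 and B4galnt3 (added N-acetylgalactosamine). They were chosen by name among 34866 genes in the deposited table, and 9 of the 10 had enough counts to be tested.

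The libraries are bulk RNA-seq of antral gastric mucosa from mice, 3 with the genotype Muc6 -/- (knockout 1 to 3) and 3 with Muc6 +/+ (wild type 1 to 3). The labels used here give no strain, sex, age or design of the Muc6 allele, and they do not say whether the libraries of a genotype came from separate animals. The p-values hence describe the spread among these libraries alone, and that spread may be technical. Levels are CPM, estimated counts scaled to 1e+06 per library, with a library size corrected for composition (TMM, trimmed mean of M values), and a change is the log2 fold change of knockout over wild type with its standard error (SE). A gene was called at a Benjamini-Hochberg adjusted p below 0.05 over all 14017 genes tested with edgeR's quasi-likelihood test.

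Total counts ran from 19839691 to 20673608 in the knockout libraries and from 19942242 to 21353935 in the wild-type libraries. Muc6 was at 0.0425, 0 and 0 CPM in knockout 1, 2 and 3 and at 396, 403 and 510 CPM in wild type 1, 2 and 3. The Y-linked gene Ddx3y averaged 40.5 ± 1.06 CPM in the knockout and 0.166 ± 0.142 CPM in wild type (SD, n = 3 each), so genotype and sex cannot be told apart in any difference below. In this dataset 38.4% of tested genes were called, 19.3% as higher and 19.2% as lower in the knockout. Scaling to total counts, with no correction for composition, moved the median of all tested genes by 0.417 on the log2 scale and made 84.01% of all calls higher, against 50.11% with TMM, and the directions below are relative to the TMM scaling. Of 7 antral marker genes, all tested, 6 were lower in the knockout, Muc6 itself among them, and 1, Pdx1, was higher. Their summed level was 37270 to 47770 CPM in the knockout and 158800 to 183200 CPM in wild type. Gkn1, Gkn2, Tff1 and Muc5ac of this list are also pit cell markers, so the pit cell values given next are not a separate result. Of 9 pit cell markers 8 were lower, at a summed 39220 to 52080 CPM in the knockout and 163300 to 189600 CPM in wild type, and of 8 gland mucous cell markers 6 were higher and 1, Muc6, was lower. The part of these cells in the differences below was not tested. The library numbered 1 of each genotype stood apart on the second principal component, which held 20.1% of the variance, at 48.2 for knockout 1 and 72.3 for wild type 1, while the other 4 lay between -50.9 and -19.6. In bulk tissue, fewer cells of a type and less RNA per cell cannot be told apart.

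Both genes of the core 1 step, C1galt1 and its chaperone gene C1galt1c1, were lower in the knockout. A core 2 gene, Gcnt4, the core 1 extension gene B3gnt3 and the N-acetylgalactosamine transferase gene B4galnt2 were higher. The changes ran from a fall to 0.489 of the wild-type level for C1galt1c1 to a 35.8-fold rise for B4galnt2, which was carried by knockout 2 and 3. Gcnt1, Gcnt3, B3gnt5 and B4galnt3 did not pass the threshold, and B3gnt6 was too low to test. Of the 9 tested genes 3 were thus called higher and 2 lower, beside the 19.3% and 19.2% of all tested genes given above. With total counts 4 were higher and 2 lower, beside 40.9% and 7.78% of all tested genes. With the GC trend removed 3 were higher and 1 lower, beside 17.8% and 16.1%, with Gcnt1 in place of B4galnt2 among the higher ones. Without both libraries numbered 1, 3 were higher and 3 lower, Gcnt3 among the lower ones, beside 23.7% and 24.3%. No more is read from these counts, and the median change was -0.23 over these 9 genes and 0.02 over all tested genes.

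**Figure D1:**
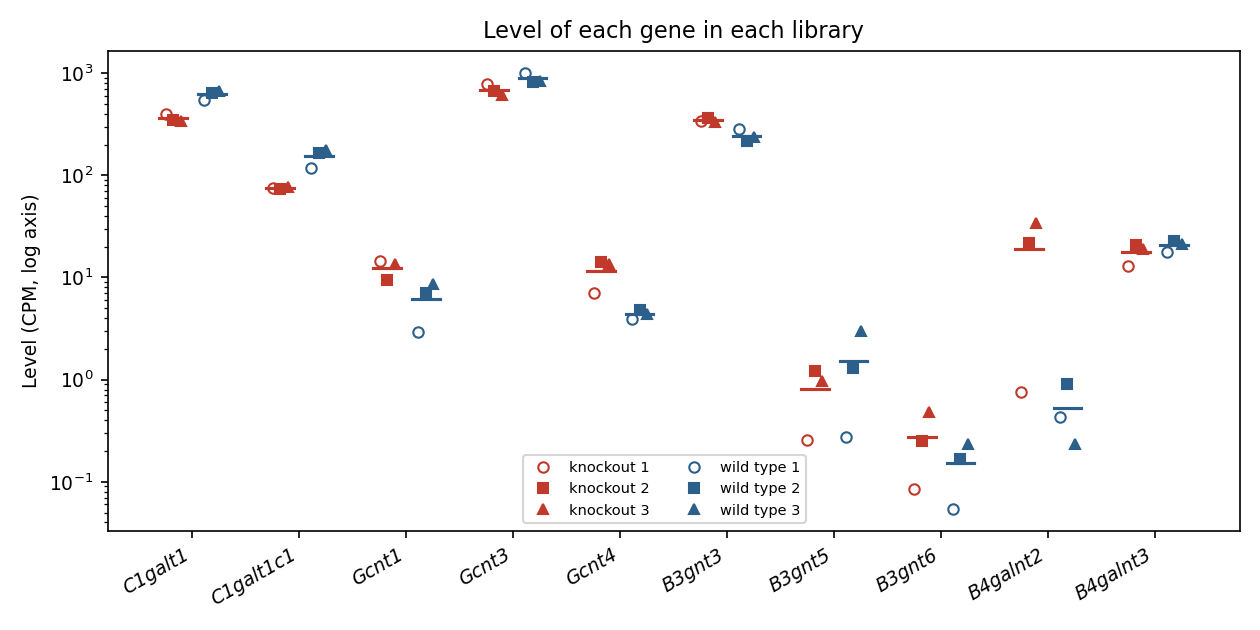
Level of each of the 10 genes in each library, in CPM on a log axis, with knockout libraries in red left of wild-type libraries in blue. Symbols mark the library number and horizontal bars the mean of 3 libraries. B4galnt2 shows 2 knockout libraries at 21.9 and 34.1 CPM and 1 at 0.765 CPM, while C1galt1 and C1galt1c1 lie lower in all 3 knockout libraries.

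The stretches around the transcription start of the called genes are shown here as a description of the genes. A link between these stretches and the direction of change was not tested, and C1galt1 is the only gene called lower among those printed. RefSeq's table on GRCm38.p6, the same build as mm10, held such a stretch, 250 bases before to 50 bases after a start, for 7 of the 10 genes, and among called genes for all but C1galt1c1. For Gcnt4, which has 2 entries, the one that starts nearest to the annotated gene start is given. Each runs 5′ to 3′ on the gene's strand, with every CG dinucleotide in capitals.
C1galt1: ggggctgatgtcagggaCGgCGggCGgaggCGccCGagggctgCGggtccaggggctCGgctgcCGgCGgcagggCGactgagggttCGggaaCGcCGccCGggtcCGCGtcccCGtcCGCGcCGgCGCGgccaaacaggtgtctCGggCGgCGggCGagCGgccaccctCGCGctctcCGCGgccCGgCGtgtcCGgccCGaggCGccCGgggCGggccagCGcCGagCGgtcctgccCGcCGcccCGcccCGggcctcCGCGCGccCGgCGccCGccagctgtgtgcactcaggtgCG
Gcnt4: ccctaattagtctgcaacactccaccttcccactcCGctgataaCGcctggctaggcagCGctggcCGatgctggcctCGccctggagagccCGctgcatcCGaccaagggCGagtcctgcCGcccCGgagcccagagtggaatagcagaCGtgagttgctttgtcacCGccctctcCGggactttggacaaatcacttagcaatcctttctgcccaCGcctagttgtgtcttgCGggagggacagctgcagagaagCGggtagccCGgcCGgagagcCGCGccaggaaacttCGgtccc
B3gnt3: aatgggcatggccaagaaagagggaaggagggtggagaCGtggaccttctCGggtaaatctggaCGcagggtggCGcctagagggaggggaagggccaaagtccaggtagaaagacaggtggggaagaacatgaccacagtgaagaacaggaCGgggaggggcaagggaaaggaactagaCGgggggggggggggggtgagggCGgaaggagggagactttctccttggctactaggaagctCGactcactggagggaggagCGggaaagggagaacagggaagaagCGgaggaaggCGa
B4galnt2: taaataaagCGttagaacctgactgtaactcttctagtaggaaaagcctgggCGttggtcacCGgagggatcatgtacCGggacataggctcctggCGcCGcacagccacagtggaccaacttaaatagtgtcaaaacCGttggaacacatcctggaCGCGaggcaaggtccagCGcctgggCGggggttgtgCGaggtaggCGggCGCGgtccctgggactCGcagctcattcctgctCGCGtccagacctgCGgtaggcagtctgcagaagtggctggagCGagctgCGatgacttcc
These lie at chr6:7844974-7845273 on the plus strand, chr13:96924463-96924762 on the plus strand, chr8:71701751-71702050 on the minus strand and chr11:95914822-95915121 on the minus strand, in the order printed. The C1galt1 stretch held 52 CG dinucleotides, more than 99.4% of the 32851 stretches in the table, whose median was 7. Gcnt4 and B4galnt2 held 21 each and B3gnt3 held 11. The AP-1 letters TGANTCA, the CDX letters TTTATG and the TATA box letters TATAAA, searched on both strands, were found in none of the 4 printed stretches. The other Gcnt4 entry, at chr13:96924094-96924393, held 1 match to the AP-1 letters and 5 CG dinucleotides. They were held by 7.81%, 11.9% and 13.6% of all stretches.

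C1galt1 encodes the core 1 synthase, the enzyme that adds galactose to the first sugar and so opens the route to most mucin O-glycans. The gene lies on the plus strand of chromosome 6 (7844842 to 7875687, mm10). It was at 400, 350 and 343 CPM in knockout 1, 2 and 3, against 551, 634 and 670 CPM in wild type 1, 2 and 3. The groups did not overlap, and library 1 lay nearest to the other genotype in both. The fold change was -0.76 on the log2 scale (SE 0.12, adjusted p = 0.00312, edgeR). It was -0.30 (adjusted p = 0.0662) once the trend of each library's values over transcript GC content had been removed, which ended the call, and -0.35 with total counts. The longest C1galt1 transcript has a GC content of 39.8%.

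C1galt1c1 encodes Cosmc, the chaperone that the core 1 synthase needs to fold. It was at 75.6, 72.7 and 76.5 CPM in knockout 1, 2 and 3, against 118, 165 and 177 CPM in wild type 1, 2 and 3. The knockout libraries lay close together and all below the lowest wild-type library, wild type 1. The fold change was -1.03 (SE 0.16, adjusted p = 0.00253, edgeR). Total counts gave -0.62 and removal of the GC trend gave -0.53, and the call stood in both. C1galt1c1 (38630785 to 38635087, minus strand) is the only one of the 10 genes on the X chromosome, and the libraries differ in sex. Of 454 tested X-linked genes, 28.9% were called lower in the knockout and the median change was -0.36, beside 19.2% lower over all tested genes. Per kilobase of transcript, the C1galt1c1 level was 0.794, 0.875 and 0.938 times the C1galt1 level in knockout 1, 2 and 3, and 0.904, 1.09 and 1.11 times in wild type 1, 2 and 3. These ratios overlap between the genotypes.

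Among the core 2 genes Gcnt4 alone was called, and the changes of Gcnt3 and Gcnt1, below and above 0 with TMM scaling, did not pass. Gcnt3, which encodes the mucin-type branching enzyme of mucous epithelia, had the highest level per kilobase of the 10 genes in every library. It was at 782, 670 and 605 CPM in knockout 1, 2 and 3, against 1013, 816 and 840 CPM in wild type 1, 2 and 3. All 3 knockout libraries lay below the wild-type libraries, but the change of -0.38 (SE 0.14) did not pass (adjusted p = 0.073, edgeR), and it was 0.04 with total counts. It passed without knockout 1 (-0.48, adjusted p = 0.0452), without both libraries numbered 1 (-0.40, adjusted p = 0.017) and with DESeq2 (adjusted p = 0.0259).

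Gcnt4, a minor core 2 enzyme gene, was at 7.1, 14.3 and 13.5 CPM in knockout 1, 2 and 3, against 3.91, 4.84 and 4.35 CPM in wild type 1, 2 and 3. All knockout libraries were above all wild-type libraries, with knockout 1 the lowest of the 3. The fold change was 1.41 (SE 0.29, adjusted p = 0.00878, edgeR), or 2.66-fold. Gcnt4 was called in each of 17 other fits, with a fold change of 1.24 to 1.83 and an adjusted p of 2.35e-04 to 0.0407. A gene annotated on the opposite strand overlaps Gcnt4, and whether counting used the strand is not given in the sources used here, so reads from it cannot be told apart.

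Gcnt1, the core 2 gene best known from leukocytes, was at 14.4, 9.35 and 13.4 CPM in knockout 1, 2 and 3, against 2.93, 6.97 and 8.64 CPM in wild type 1, 2 and 3. The groups did not overlap, with a gap of less than 1 CPM between knockout 2 and wild type 3. The fold change of 1.01 (SE 0.39) did not pass (adjusted p = 0.0777, edgeR), and passed under total counts (1.42, adjusted p = 0.0208), after removal of the GC trend (1.39, adjusted p = 0.0231) and in DESeq2 (adjusted p = 0.0369). Without wild type 1 it was 0.66. Of 14 leukocyte marker genes 10 were tested, 4 were higher, none was lower and 6 did not pass. The summed level of all 14 was 281, 88.4 and 88.3 CPM in knockout 1, 2 and 3, against 11.5, 63.2 and 70.6 CPM in wild type 1, 2 and 3. S100a8 and S100a9, which did not pass, held 60 and 89.6 CPM of the sum in knockout 1 and 0.706 and 1.58 CPM in knockout 2. The part of these markers in the Gcnt1 difference was not tested. Non-overlapping groups were found for 6 of the 9 tested genes, 3 above and 3 below wild type, beside 54.8% of all tested genes, 28.2% above and 26.6% below.

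Within the core 2 enzymes, per kilobase of transcript, Gcnt3 made up 97.6%, 97.0% and 96.2% of the summed level in knockout 1, 2 and 3, against 99.4%, 98.7% and 98.6% in wild type 1, 2 and 3. Gcnt1 and Gcnt4 together thus remained a small share in every library. Gcnt4 held 0.748% to 1.82% in the knockout and 0.325% to 0.495% in wild type.

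**Figure D2:**
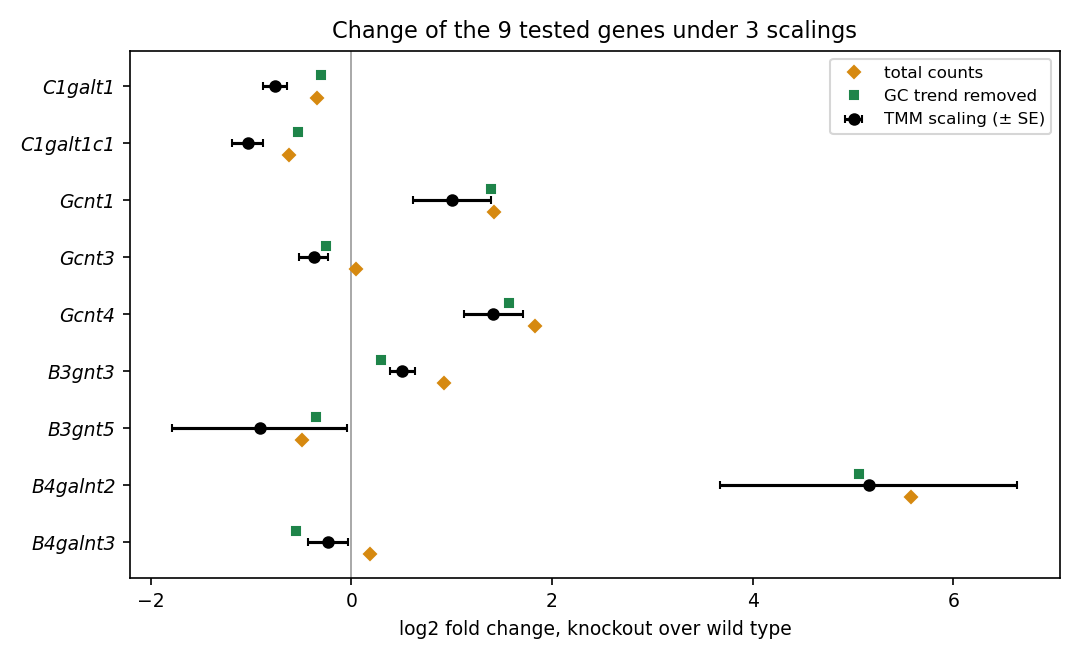
Log2 fold change of knockout over wild type for the 9 tested genes, with TMM scaling in black with its SE, total counts in orange and values freed of each library's GC trend in green. Gcnt3 and B4galnt3 lie on opposite sides of 0 with total counts (0.04 and 0.19) and TMM scaling (-0.38 and -0.23), while C1galt1 and C1galt1c1 lie below 0 and B3gnt3, Gcnt4 and B4galnt2 above 0 in all 3.

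B3gnt3 encodes the enzyme that lengthens core 1 with N-acetylglucosamine, on which sulfated and Lewis-type chains are built. It was at 344, 367 and 336 CPM in knockout 1, 2 and 3, against 282, 218 and 235 CPM in wild type 1, 2 and 3. The groups did not overlap, and wild type 1 lay nearest to the knockout. The fold change was 0.51 (SE 0.12, adjusted p = 0.0152, edgeR), or 1.42-fold. The call ended without knockout 2 (adjusted p = 0.0605), wild type 2 (0.0614) or wild type 3 (0.0556), at fold changes of 0.44 to 0.48. Total counts gave 0.93 and removal of the GC trend gave 0.30, and both passed.

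B3gnt6, the core 3 synthase gene, was nearly silent. It had 2, 6 and 11 counts in knockout 1, 2 and 3 and 1, 3 and 4 counts in wild type 1, 2 and 3. The summed counts, 19 against 8, gave a knockout over wild-type ratio of 1.8 with an exact 95% interval of 0.752 to 4.75, which covers counting error only, so no difference was detectable at this depth.

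B3gnt5, whose enzyme is known mainly for starting lacto-series glycolipids, was at 0.255, 1.21 and 0.96 CPM in knockout 1, 2 and 3, against 0.272, 1.29 and 3.02 CPM in wild type 1, 2 and 3. It was lowest in the library numbered 1 of each genotype and highest in wild type 3. The fold change of -0.91 (SE 0.87) did not pass (adjusted p = 0.438, edgeR) and was 0.02 without wild type 3. Markers of stroma and vessels were ordered in a similar way, with summed levels of 466, 1091 and 885 CPM in knockout 1, 2 and 3 and 177, 1416 and 2604 CPM in wild type 1, 2 and 3. Wild type 1 had the smallest wild-type value for all 13 of them, and knockout 1 the smallest knockout value for 10. Neither count was set beside the same share of all tested genes. None of the 13 was at 0 throughout a genotype, 2 were called higher and none lower, and their part in the B3gnt5 values was not tested.

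B4galnt2 encodes the transferase that makes the Sda carbohydrate antigen, found on mucins of the intestine in mice. It was at 0.765, 21.9 and 34.1 CPM in knockout 1, 2 and 3, against 0.435, 0.9 and 0.232 CPM in wild type 1, 2 and 3. Knockout 2 and 3 stood far above every other library, while knockout 1, with 18 counts, lay within the wild-type range, whose libraries held 4 to 16 counts. B4galnt2 passed the filter on low counts through the knockout, where it was high. The wild-type libraries alone would not have passed it. The fold change was 5.16 (SE 1.48, adjusted p = 0.0438, edgeR). The call ended without knockout 2 (adjusted p = 0.0979), knockout 3 (0.0772), wild type 1 (0.137), wild type 2 (0.105) or wild type 3 (0.131), with limma-voom (0.402), with no low-count filter (0.104) and with the GC trend removed (0.0545). Without knockout 1 the fold change was 5.73 (adjusted p = 5.85e-04).

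Knockout 1 was the lowest knockout library for most genes of several marker lists, as it was for B4galnt2. The list of intestinal goblet cells and enterocytes was among them. Knockout 1 had the smallest knockout value for all 15 genes of that list, and 9 of them were over 3 times higher in both knockout 2 and knockout 3. The same counts were 9 and 6 of 10 enteroendocrine markers and 6 and 3 of 7 parietal and chief cell markers. Knockout 1 was also the lowest knockout library for 7 of 9 pit cell markers, but for 1 of 14 leukocyte markers. The share of all tested genes that were lowest in knockout 1 was not computed. These counts hence cannot be told apart from a shift of the whole library. Against wild type, 6 of these enteroendocrine markers and 5 of these parietal and chief cell markers were called lower, and none was called higher. Enteroendocrine markers summed to 60.1 to 381 CPM in the knockout and 1533 to 2079 CPM in wild type. Parietal and chief cell markers summed to 144 to 1181 CPM in the knockout and 4362 to 5888 CPM in wild type. Cdx2, an intestinal transcription factor gene, was at 0.085, 10.5 and 11.7 CPM in knockout 1, 2 and 3, against 0.217, 0.225 and 0.348 CPM in wild type 1, 2 and 3. Muc2, the goblet cell mucin gene, was at 0.212, 32.9 and 81.5 CPM in knockout 1, 2 and 3 and at 0.978, 0.787 and 0.232 CPM in wild type 1, 2 and 3. Of the 13 tested list genes 6 were called higher and 2 lower, the latter Clca1 (-0.62) and Fabp2 (-2.78). The summed level was 6253 to 10510 CPM in the knockout and 9283 to 11310 CPM in wild type, and Cdx1 was at 0 in wild type. Most of that sum came from Agr2, Clca1, Lgals4 and Fcgbp, so it says little about the other genes of the list. These averaged 3954, 3299, 1452 and 721 CPM in wild type and 2277, 2145, 1669 and 1007 CPM in the knockout. Cdx2 and Muc2 were picked from the list after their values were seen. Cdx2 was not tested, and Muc2 did not pass (adjusted p = 0.0647, edgeR). The part of any of these cells in the B4galnt2 difference was not tested. An antisense gene overlaps B4galnt2, so the caution on strand given for Gcnt4 holds here too.

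B4galnt3, whose enzyme makes the LacdiNAc unit of N-acetylgalactosamine on N-acetylglucosamine, known from gastric mucins, was at 13.1, 20.6 and 19.2 CPM in knockout 1, 2 and 3, against 17.8, 22.8 and 21.5 CPM in wild type 1, 2 and 3. The groups overlapped, and the library numbered 1 was the lowest in both. The fold change of -0.23 (SE 0.20) did not pass (adjusted p = 0.384, edgeR) and was 0.19 with total counts. Per kilobase, B4galnt2 made up 11.1%, 69.4% and 79.1% of the summed level of the B4galnt2 and B4galnt3 pair in knockout 1, 2 and 3, against 4.96%, 7.76% and 2.26% in wild type 1, 2 and 3. The gene with the higher level was therefore B4galnt2 in knockout 2 and 3 and B4galnt3 in the other 4 libraries.

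**Figure D3:**
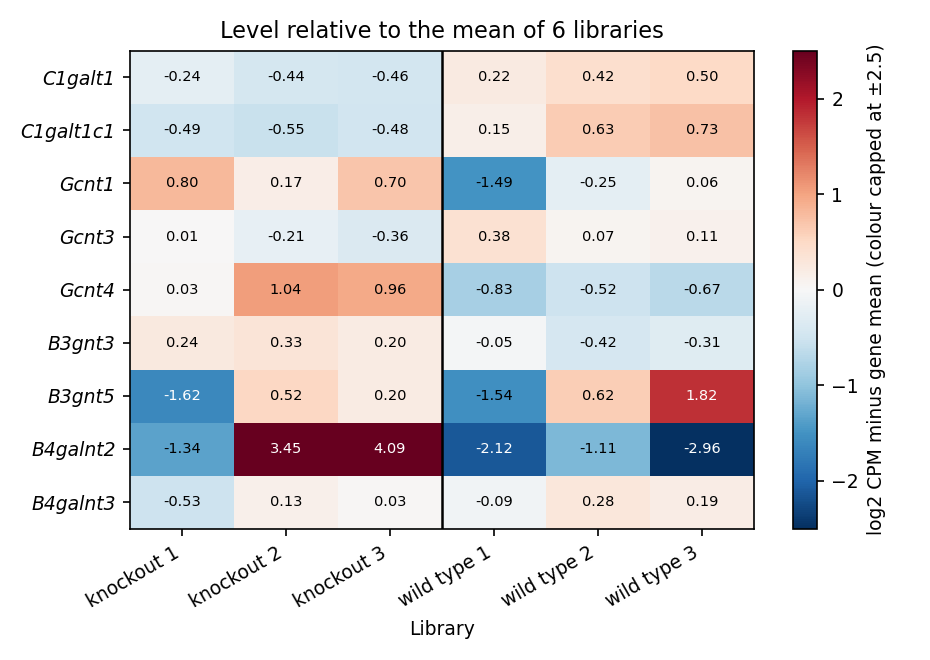
Level of each tested gene in each library as log2 CPM minus the mean of the gene over the 6 libraries, with red above and blue below that mean, colours capped at 2.5 in either direction and knockout libraries left of the black line. B4galnt2 stands at 3.45 and 4.09 in knockout 2 and 3 but at -1.34 in knockout 1, and B3gnt5 is low in the library numbered 1 of both genotypes.

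Levels per kilobase of the longest annotated transcript put 4 of the genes far above the rest. In the knockout the order was Gcnt3 (160 ± 20.8 CPM per kilobase, SD, n = 3), B3gnt3 (114 ± 5.29), C1galt1 (59.8 ± 5.16) and C1galt1c1 (51.7 ± 1.36), and no neighbours among these 4 overlapped. In wild type it was Gcnt3 (207 ± 25.0 CPM per kilobase, SD, n = 3), C1galt1c1 (106 ± 21.3), C1galt1 (101 ± 9.99) and B3gnt3 (80.3 ± 10.7). There Gcnt3 lay apart, while C1galt1c1 overlapped C1galt1 and C1galt1 overlapped B3gnt3. Each of these 4 genes had a mean level per kilobase above that of at least 92.4% of tested genes in either genotype.

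The other genes lay below these 4 in every library. In the knockout B4galnt2 (11 ± 9.8 CPM per kilobase) spanned 0.444 to 19.8 and so overlapped B4galnt3 (4.79 ± 1.09), Gcnt1 (2.69 ± 0.586) and Gcnt4 (2.29 ± 0.777), of which the last 2 also overlapped each other. B3gnt5 and B3gnt6 were at 0.166 ± 0.101 and 0.114 ± 0.0836 CPM per kilobase in the knockout and overlapped. In wild type B4galnt3 (5.63 ± 0.713) stood above Gcnt1 (1.34 ± 0.637), which overlapped Gcnt4 (0.858 ± 0.091). B3gnt5 (0.313 ± 0.285) and B4galnt2 (0.303 ± 0.199) overlapped each other in wild type and lay below Gcnt4, and B3gnt6 was at 0.064 ± 0.038 CPM per kilobase. With the length of all annotated exons in place of the longest transcript, Gcnt1 was at 2.15 CPM per kilobase in the knockout, below Gcnt4.

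The genes also differ in structure, which the choice by name did not use. The coding sequence of C1galt1c1, Gcnt1, Gcnt3, Gcnt4, B3gnt5 and B3gnt6 lies in 1 exon in the principal annotated transcript, while that of B3gnt3 spans 2 exons, C1galt1 3, B4galnt2 11 and B4galnt3 20. The encoded proteins run from 316 amino acids for C1galt1c1 to 986 for B4galnt3. The 10 genes lie on 9 chromosomes, with only C1galt1 and B4galnt3 on the same one.

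Other genes of the pathway were counted in 5 lists. The lists were not limited to enzymes that act on mucins, and some members act on glycolipids or other glycans. Of 68 tested genes 26 were higher, 14 were lower and 28 did not pass, with a median change of 0.39, beside 19.3% and 19.2% of all tested genes. With total counts 33 were higher and 8 lower, beside 40.9% and 7.78% of all tested genes.

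Among the enzymes that start O-glycans, 7 of 14 tested were higher and 1 was lower. Galnt3 and Galnt10, transferases that attach the first sugar, were higher at log2 fold changes of 1.13 (SE 0.11) and 1.15 (SE 0.12). Galnt13, another, fell by 2.70 (SE 0.57) on the log2 scale to 0.185 ± 0.0906 CPM in the knockout, against 1.23 ± 0.264 CPM in wild type (SD, n = 3 each; adjusted p = 0.00914, edgeR). Galnt13 passed the main filter on low counts only through wild type, where it was higher. A filter of 1 CPM in 3 libraries removed Galnt13, and its call ended with the replicate block plus GC removal (-2.18, adjusted p = 0.0588).

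Among chain extension genes, 6 of 16 tested were higher and 2 were lower. The lower ones both add galactose to the end of a chain. B3galt1 was at 0.425, 0.457 and 0.698 CPM in knockout 1, 2 and 3, against 15.8, 11.8 and 14.1 CPM in wild type 1, 2 and 3, and B3galt5 was at 3.95, 25.1 and 26.8 CPM against 181, 135 and 190 CPM. Neither gene overlapped between genotypes, and B3galt5 was lowest in knockout 1. The changes were -4.71 (SE 0.29) and -3.18 (SE 0.73), with adjusted p-values of 1.41e-04 and 0.0223 (edgeR). The call of B3galt5 ended when any 1 of the libraries other than knockout 1 was left out (adjusted p 0.051 to 0.0634). Testing every gene without a filter on low counts ended it too (0.0597). B4galt6 and B4galt3, which add galactose in another linkage, rose by 0.79 (SE 0.09) and 0.94 (SE 0.14).

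Among sialic acid capping genes, 4 of 8 tested were higher and none was lower, with St3gal4 and St3gal6, both sialyltransferase genes, higher by 5.70 (SE 0.27) and 1.14 (SE 0.13). Among fucose and sulfate capping genes, 3 of 9 were higher and 2 lower. The sulfotransferase genes Chst1 and Gal3st2 rose by 2.41 (SE 0.56) and 2.10 (SE 0.62), and the fucosyltransferase gene Fut4 and the sulfotransferase gene Gal3st1 changed by -1.18 (SE 0.18) and -1.31 (SE 0.23). The calls of Chst1 and Gal3st2 ended without knockout 2 (adjusted p = 0.053 and 0.0767) or wild type 3 (0.0505 and 0.0721), and that of Gal3st2 also without knockout 3 (0.114) or wild type 2 (0.1), with limma-voom (0.0652) and with the replicate block plus GC removal (0.0621).

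Among genes of sugar nucleotide supply, 6 of 21 were higher and 9 lower, with a median of -0.18. Slc35c1, the carrier of GDP-fucose into the Golgi, and Gne, which encodes the first enzyme of sialic acid synthesis, rose by 0.89 (SE 0.11) and 1.29 (SE 0.20). Ugp2, which makes UDP-glucose, and Slc35d2, a nucleotide sugar carrier gene, changed by -1.24 (SE 0.10) and -1.49 (SE 0.13).

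**Figure D4:**
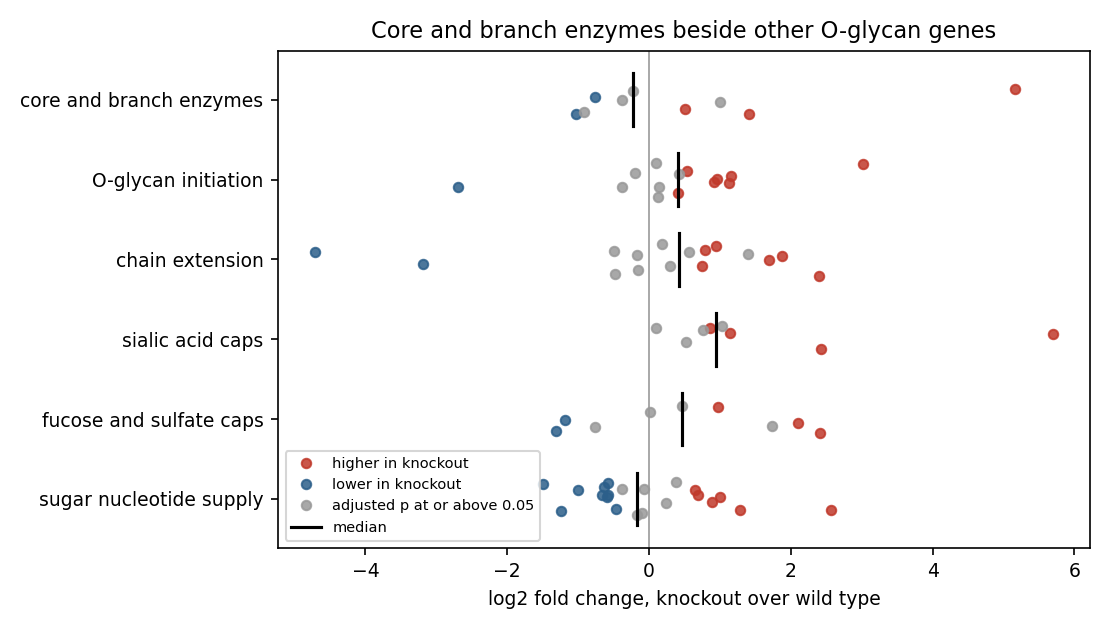
Log2 fold change of knockout over wild type for each tested core and branch enzyme gene (top) and for each tested gene of 5 other lists, 1 point per gene, red for genes called higher, blue for genes called lower and grey for genes that did not pass, with the list median as a vertical bar. The medians are -0.23 for the 9 core and branch genes and 0.41, 0.43, 0.94, 0.47 and -0.18 for the lists below them, and the points are spread vertically only to be seen.

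The pathway genes whose pattern over the 6 libraries was most like that of each called gene were found by the smallest root mean square difference of log2 CPM after the mean of each gene was taken off. C1galt1 was closest to Slc35a3, the carrier of UDP-N-acetylglucosamine, at a difference of 0.11, and then to Slc35b3, a carrier of the sulfate donor, at 0.16. C1galt1c1 was closest to Slc35a1, the carrier of CMP-sialic acid, at 0.19, and then to Ugp2 at 0.22. Gcnt4 was closest to Gne at 0.14 and then to Galnt5, an initiation gene, at 0.24. Gne was at 39.7, 60.3 and 69 CPM in knockout 1, 2 and 3, against 22.2, 24.5 and 22.5 CPM in wild type 1, 2 and 3, so that knockout 1 was again the lowest of the knockout libraries. B3gnt3 was closest to Galnt12, a gene of O-glycan initiation, at 0.09, and then to Slc35a4 at 0.13. The closest genes to B4galnt2 were Chst1 at 1.63 and Gfpt2 at 1.76. This measure grows with the size of a change, so it places genes of similar change first. For B4galnt2 it cannot show whether a gene of smaller change had the same pattern.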

How the data were processed

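Bulk RNA-seq of antral gastric mucosa was compared between 3 Muc6 -/- and 3 Muc6 +/+ libraries, made with a TruSeq Stranded mRNA kit from RNA extracted with a Nucleospin kit, per the labels' protocols. The authors deposited estimated counts per gene, a unit taken from the values, of which 28.8% to 34.25% of those above 0 in a library are not whole. Per the submitters' processing notes the build was mm10, and the sources used here name no aligner, counter or annotation. Close copies or overlapping genes may therefore share reads. Estimated counts were rounded. Symbols were found for 34582 of 34866 identifiers, and coordinates, lengths and GC content come from GENCODE release M21 on the same build. St6galnac2, a symbol of 2 identifiers, was left out, and Dpcr1 was not found.

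Genes were kept with filterByExpr, scaled with TMM and tested with robust quasi-likelihood fits in edgeR 4.0.16 on R 4.3.3, with the SE taken from the fold change and its F statistic. That filter asks for enough counts in as many libraries as a genotype holds, so a gene can pass through 1 genotype alone. Among others, Chst1, Gal3st2 and St3gal1 passed through the knockout, where they were high, as B4galnt2 did. The test was checked on simulated counts with far fewer changed genes than were called here, in balanced directions. That check gave every gene the same spread and held no library that stood apart, and it does not cover a shift of composition. The members and lists were chosen with earlier results of these data known. All 10 members are named, and for each pathway list up to 2 called genes in each direction with the smallest adjusted p. The counts of 2 libraries of the same genotype gave a chi-square of 17.1 to 85.4 per degree of freedom, so no library was taken as a repeat deposit of another, which does not show that they came from separate animals. Alternatives used DESeq2 1.42.0, limma-voom 3.58.1, other scalings and filters, the replicate number as a block, the GC trend, and libraries left out.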

Additional observations from a re-analysis of the deposited data

How the results depend on the processing

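Of the counts of called genes in the other fits, 13 moved by over 1.5 times and 95 did not. Fits of both kinds are given here. With total counts 5730 genes were higher and 1091 lower, and 8 pathway genes were lower. At a false discovery rate of 0.01, 1257 genes were higher, 1408 were lower and 1 of the core and branch genes was higher. With the GC trend removed, 1 of them was lower. Leaving out 1 library gave 1600 to 3045 genes higher and 1721 to 2964 lower, 1 to 3 core and branch genes higher and 2 to 3 lower, and 21 to 26 pathway genes higher and 10 to 13 lower. Without knockout 2, wild type 2 or wild type 3, 1 core and branch gene was higher. The fold change turned to the other side of 0 for Gcnt3 (0.042) and B4galnt3 (0.19) with total counts, neither called. For B3gnt5, never called, it ran from -1.41 without wild type 1 to 0.023 without wild type 3. The cause was not tested. B4galnt2 had no value with the filter of 1 CPM in 3 libraries. With the replicate number as a block, 2572 genes were higher and 2497 lower, and 3 core and branch genes were higher and 2 lower, as without it. Same-numbered libraries deviated together at correlations of 0.23, 0.09 and 0.18, so the numbers were not taken as pairs. With the block and the GC trend removed together, 2 were higher and 2 lower: C1galt1 (adjusted p = 0.0968), B3gnt3 (0.0927) and B4galnt2 (0.0633) lost their calls, and Gcnt1 (0.0362) and B4galnt3 (0.0224) gained one. Levels below about 1 CPM rest on few counts, which limits B3gnt5, B3gnt6 and the wild-type values of B4galnt2.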

Other observations

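Gcnt2, a relative of the core 2 genes whose enzyme makes branched (I antigen) chains, was at 28.9, 22.9 and 20.2 CPM in knockout 1, 2 and 3, against 1.79, 5.29 and 6.67 CPM in wild type 1, 2 and 3. It was picked after its values were seen. The groups did not overlap, and the fold change was 2.39 (SE 0.45, adjusted p = 0.00786, edgeR), with a range of 1.83 to 2.81 and adjusted p-values of 1.26e-07 to 0.0365 over 17 other fits.

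St3gal1, whose enzyme caps core 1 with sialic acid, was also picked after its values were seen. It was at 7.14, 8.39 and 8.59 CPM in knockout 1, 2 and 3, against 0.435, 1.63 and 2.44 CPM in wild type 1, 2 and 3. Its fold change was 2.42 (SE 0.54, adjusted p = 0.0114, edgeR), and the call ended without wild type 2 (adjusted p = 0.0505). A4gnt, the gene of the enzyme that adds the terminal N-acetylglucosamine typical of gland mucins, was at 48, 92.2 and 175 CPM in knockout 1, 2 and 3, against 67.4, 89.8 and 99.4 CPM in wild type 1, 2 and 3. The knockout libraries spanned the wild-type range on both sides, and the gene did not pass (adjusted p = 0.648, edgeR).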
